A study of Mus musculus with 3 samples.

Results

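The Notch pathway was described through 10 genes, the ligands Dll4, Jag1 and Jag2, the receptors Notch1, Notch2, Notch3 and Notch4, and the target genes Hey1, Heyl and Hes1, out of 25154 genes listed over the 3 count tables. The genes were chosen by name, and all 10 were listed in each table. Nuclei came from the interscapular brown adipose tissue (BAT) of C57BL/6J mice, which the labels give as adult wild-type C57Bl6 and the paper's methods as 8 weeks old. There was 1 library of untreated BAT, 1 of sham-operated BAT and 1 of denervated BAT. The untreated and denervated libraries were each pooled from 20 mice, and the methods state that only males were used. The number of animals behind the sham library and the time after its operation are not given in the sources used here. The denervated BAT was taken at day 3 after the intercostal nerves to the left lobe were cut, and the legend for that experiment also lists tamoxifen. All nuclei were isolated from the floating layer of digested tissue, which holds brown adipocytes (BAs) and fragments of vessels, so the share of each cell type is that of this layer and not of whole BAT.

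Notch receptors sit in the membrane of one cell and are activated by ligands in the membrane of a neighbour. Ligand binding lets a metalloprotease and then gamma-secretase cut the receptor, and the freed intracellular domain enters the nucleus, where it joins RBPJ and switches on genes of the Hes and Hey families. In vessels, Dll4 in endothelial cells (ECs) restrains sprouting and favours arterial identity, and Jag1 presented to mural cells acts through Notch3 in the maturation of smooth muscle cells and pericytes.

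Upstream sequences are shown for 3 genes whose levels divided ECs from mural cells, the endothelial ligand Dll4, the mural receptor Notch3 and the endothelial receptor Notch4. The sequences are those of RefSeq on GRCm38.p6, printed 5′ to 3′ on the strand of the gene and ending at or before the gene start, from chr2:119325534-119325783 on the plus strand for Dll4, chr17:32166891-32167140 on the minus strand for Notch3 and chr17:34564045-34564267 on the plus strand for Notch4. Capitals mark AGGAAG or its reverse complement CTTCCT, an ETS-type motif. ETS factors are a family that includes several regulators of endothelial genes.
Dll4: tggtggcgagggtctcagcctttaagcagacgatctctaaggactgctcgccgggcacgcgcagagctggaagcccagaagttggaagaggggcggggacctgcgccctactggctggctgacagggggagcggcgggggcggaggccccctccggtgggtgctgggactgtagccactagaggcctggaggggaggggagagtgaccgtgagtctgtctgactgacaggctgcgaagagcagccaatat
Notch3: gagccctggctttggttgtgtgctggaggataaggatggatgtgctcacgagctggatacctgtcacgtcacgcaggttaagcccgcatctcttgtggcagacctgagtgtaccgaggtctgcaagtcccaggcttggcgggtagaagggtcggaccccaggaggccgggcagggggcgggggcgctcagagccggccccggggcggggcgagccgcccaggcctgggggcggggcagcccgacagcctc
Notch4: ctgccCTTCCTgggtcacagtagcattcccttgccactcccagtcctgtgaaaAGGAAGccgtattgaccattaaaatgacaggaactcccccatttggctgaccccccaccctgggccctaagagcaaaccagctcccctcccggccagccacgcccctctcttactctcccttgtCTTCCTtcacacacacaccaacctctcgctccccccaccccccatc
The ETS-type motif had 3 matches upstream of Notch4 and none upstream of Dll4 or Notch3. It was present on either strand in 29.5% of 32851 promoters of 250 bases, a window longer than the 223 bases shown for Notch4. TGGGAA and its reverse complement TTCCCA, the core of the RBPJ motif, was present in 21.6% of these promoters and in none of the 7 promoters matched to the 10 genes. The 2 motifs do not overlap. Hey1, Heyl and Hes1 were the genes without an entry. Absence of these letters says nothing of binding outside the windows.

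By GENCODE vM21 on GRCm38, Dll4 lies on chromosome 2 from 119325784 to 119335962, Jag1 on chromosome 2 from 137081456 to 137116644 and Jag2 on chromosome 12 from 112907819 to 112929776. Notch1 spans chromosome 2 from 26457903 to 26516663, Notch2 chromosome 3 from 98013527 to 98150361, Notch3 chromosome 17 from 32120820 to 32166852 and Notch4 chromosome 17 from 34564268 to 34588503. Hey1 lies on chromosome 3 from 8663359 to 8667256, Heyl on chromosome 4 from 123233556 to 123249875 and Hes1 on chromosome 16 from 30064384 to 30067796. All are protein-coding genes. Dll4 overlaps Gm14207, Notch1 overlaps 0610009E02Rik and Gm13568, and Notch3 overlaps Gm17276, each on the opposite strand. Notch2 overlaps Gm42819 and Gm42820 on its own strand, and how the counting treated reads in such overlaps is not given in the sources used here.

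After filtering, 10438, 11810 and 9573 nuclei were kept in the untreated, sham and denervated library. The median was 996, 753 and 692 unique molecular identifiers (UMIs, counted molecules) per nucleus. The libraries shared 107 to 137 cell numbers pairwise. Nuclei were clustered without the Notch genes and named from marker lists: 4812, 5345 and 2094 were EC-like in the untreated, sham and denervated libraries, among them 482, 357 and 142 arterial-like and 166, 186 and 83 venous-like, while 535, 1337 and 620 were pericyte-like, 71, 304 and 69 smooth muscle-like and 4859, 4516 and 6024 adipocyte-like. The arterial marker list, such as Gja5 and Sox17, had 5881, 5505 and 6327 CPM (UMIs per 1e+06 UMIs of the class) in arterial-like nuclei against 1356, 1729 and 1603 CPM in the other EC-like nuclei. The smooth muscle list had 5891, 5844 and 4560 CPM in smooth muscle-like nuclei against 333, 487 and 464 CPM in pericyte-like nuclei, and 6 or 7 markers of the 9 reached 3 UMIs in them. In the denervated library the venous-like nuclei also carried 910 CPM of a lymphatic marker list, against 262 and 170 CPM in the untreated and sham libraries. A header of the denervated table names its run with the letters nKO, and the untreated run is named with nC. The paper does not explain these letters, and whether nKO departs from the wild-type label is not known. With 1 library per condition, condition and library cannot be told apart, no test between conditions could be made and no p-value is given. All intervals are exact 95% intervals for counting error only, and levels of different genes were not compared, since the counts were not put per length.

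The ligands had 3 different patterns. Dll4 and Jag2 were far higher in EC-like than in mural-like and adipocyte-like nuclei in all 3 libraries, whereas Jag1 was highest in arterial-like and mural-like nuclei and was also present in adipocyte-like nuclei. The plot of CPM by class shows these levels for all 10 genes.

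**Figure D1:**
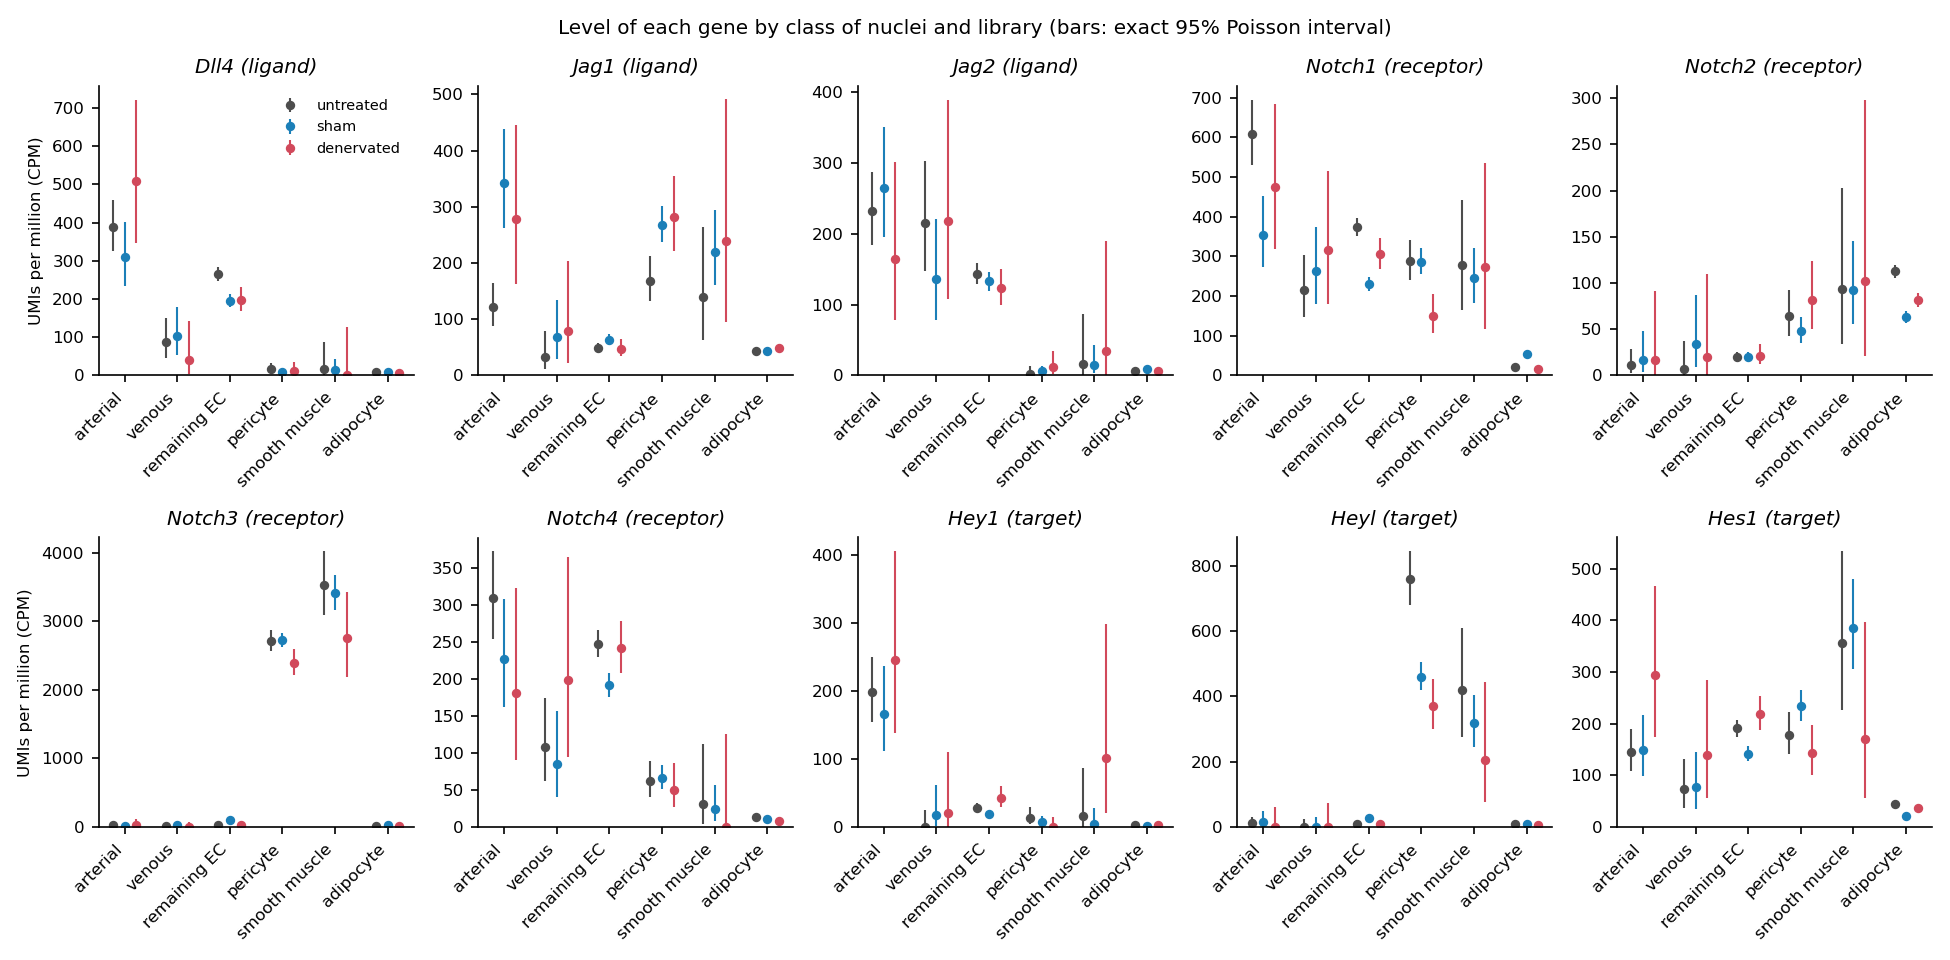
Level of each Notch gene in CPM (vertical axes, a scale of its own in each panel) by class of nuclei, with 1 point per library and exact 95% Poisson intervals. Dll4 is highest in arterial-like nuclei at 388, 309 and 508 CPM in the untreated, sham and denervated libraries, and Notch3 is highest in smooth muscle-like nuclei at 3534, 3411 and 2756 CPM.

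Dll4, the Delta-type ligand of ECs, had 388 CPM (95% interval 325 to 458) in arterial-like nuclei of the untreated library, 309 CPM (234 to 402) of the sham library and 508 CPM (345 to 721) of the denervated library. The remaining EC-like nuclei, neither arterial-like nor venous-like, had 265, 196 and 198 CPM, and venous-like nuclei had 87.3, 102 and 39.6 CPM. The order arterial, remaining, venous was therefore the same in each library, and in each the intervals of neighbours in this order did not overlap. Mural-like nuclei, pericyte-like and smooth muscle-like together, had 15.9, 8.94 and 10.4 CPM and adipocyte-like nuclei 9.48, 8.60 and 6.33 CPM. The mural-like interval overlapped the adipocyte-like one in each library. With each nucleus thinned to 300 UMIs, 10.9%, 10.4% and 10.3% of arterial-like nuclei had a Dll4 UMI, against 0.371%, 0.268% and 0.184% of adipocyte-like nuclei. Before thinning the shares were 19.9%, 12.9% and 14.1% against 1.69%, 1.11% and 0.598%, at median depths of 716, 455 and 380 UMIs in arterial-like and 1815, 1347 and 883 UMIs in adipocyte-like nuclei. The thinned share of arterial-like nuclei was thus nearly equal between libraries where the unthinned one was not.

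Levels in adipocyte-like nuclei, here those of the ligands, were also set against the endothelial RNA in the same nuclei. Per 1000 UMIs of the endothelial marker list, such as Pecam1 and Cdh5, Dll4 had 18.6, 15.7 and 16.8 UMIs in EC-like nuclei and 26.4, 20.4 and 19.5 UMIs in adipocyte-like nuclei of the untreated, sham and denervated libraries. Jag2 had 10.8, 11.1 and 10.5 against 17.3, 22.6 and 21.0 UMIs. The intervals of the 2 classes overlapped for Dll4 in the sham and denervated libraries and for Jag2 in none. Jag1 stood apart, with 3.82, 6.26 and 5.20 UMIs in EC-like and 123, 101 and 152 UMIs in adipocyte-like nuclei. The removal of doublets selected against endothelial-marker UMIs in adipocyte-like nuclei, which by itself can raise these ratios in that class. The part of endothelial RNA in the low Dll4 and Jag2 levels of adipocyte-like nuclei was not tested.

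Jag2, a Serrate-type ligand, had 232, 265 and 164 CPM in arterial-like, 215, 136 and 218 CPM in venous-like and 144, 133 and 123 CPM in the remaining EC-like nuclei of the untreated, sham and denervated libraries. Unlike Dll4, it was not low in venous-like nuclei, where its interval overlapped that of arterial-like nuclei in each library. In mural-like nuclei Jag2 had 3.98, 7.31 and 13.9 CPM, from 2, 9 and 4 UMIs, and in adipocyte-like nuclei 6.21, 9.55 and 6.83 CPM.

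Jag1, the ligand that ECs present to mural cells, had 122 CPM (88.0 to 164) in arterial-like nuclei of the untreated library, 342 CPM (262 to 439) of the sham library and 279 CPM (162 to 446) of the denervated library. The remaining EC-like nuclei had 48.0, 63.7 and 47.7 CPM. Jag1 was also found in mural-like nuclei: pericyte-like nuclei had 169, 268 and 282 CPM and smooth muscle-like nuclei 140, 220 and 238 CPM, with intervals that overlapped the arterial-like one in each library. Adipocyte-like nuclei had 44.2, 42.8 and 49.5 CPM. Thinned to 300 UMIs, 4.80%, 6.65% and 6.38% of pericyte-like and 1.63%, 1.25% and 1.34% of adipocyte-like nuclei had a Jag1 UMI, and before thinning 11.2%, 17.4% and 10% against 7.45%, 5.38% and 4.53%.

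Among the receptors, Notch3 marked mural-like nuclei, Notch4 marked EC-like nuclei, Notch1 was found in both and Notch2 was higher in adipocyte-like than in EC-like nuclei. Notch3 had 2713 CPM (2561 to 2872) in pericyte-like nuclei of the untreated library, 2727 CPM (2626 to 2830) of the sham library and 2400 CPM (2215 to 2597) of the denervated library. Smooth muscle-like nuclei had 3534, 3411 and 2756 CPM, with log2 ratios over pericyte-like nuclei of 0.38 (0.17 to 0.59), 0.32 (0.20 to 0.44) and 0.20 (-0.15 to 0.54). The excess in smooth muscle-like nuclei was thus below the size of a call in each library and within counting error in the denervated library. Thinned to 300 UMIs, 53.0%, 53.5% and 45.9% of pericyte-like and 69.6%, 63.2% and 55.3% of smooth muscle-like nuclei had a Notch3 UMI, against 0.495%, 1.03% and 0.385% of adipocyte-like nuclei. The unthinned shares were 76.8%, 78.8% and 55.3% of pericyte-like, 83.1%, 83.2% and 60.9% of smooth muscle-like and 2.78%, 3.61% and 1.23% of adipocyte-like nuclei, and the median depth of pericyte-like nuclei was 754, 737 and 376 UMIs.

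Notch1, a receptor required for vascular development, had 608 CPM (530 to 695) in arterial-like nuclei of the untreated library, 353 CPM (272 to 451) of the sham library and 475 CPM (318 to 683) of the denervated library. The remaining EC-like nuclei had 374, 230 and 305 CPM and pericyte-like nuclei 287, 287 and 151 CPM. Pericyte-like nuclei were below the remaining EC-like nuclei in the untreated and denervated libraries and above them in the sham library. Adipocyte-like nuclei had 21.1, 53.8 and 17.3 CPM, which was highest in the sham library, where EC-like nuclei were lowest. Per 1000 endothelial-marker UMIs, adipocyte-like nuclei had 58.8, 127 and 53.3 Notch1 UMIs, against 27.1, 18.8 and 25.4 in EC-like nuclei. Notch4, the receptor largely restricted to endothelium, had 308, 226 and 180 CPM in arterial-like, 247, 191 and 241 CPM in the remaining EC-like and 57.6, 59.3 and 45.1 CPM in mural-like nuclei. The intervals of arterial-like and remaining EC-like nuclei overlapped in each library, and the log2 ratio of arterial-like to all other EC-like nuclei was 0.36 (0.06 to 0.65), 0.27 (-0.22 to 0.73) and -0.40 (-1.43 to 0.47). Its 13.1, 10.2 and 8.49 CPM in adipocyte-like nuclei came to 36.5, 24.1 and 26.1 UMIs per 1000 endothelial-marker UMIs, against 17.1, 14.9 and 18.8 in EC-like nuclei. On this scale mural-like nuclei had 105, 98.6 and 53.9 Notch4 UMIs.

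Notch2, a receptor with roles in many tissues, was lower in EC-like than in adipocyte-like and mural-like nuclei. It was at 112 CPM (106 to 120), 63.2 CPM (57.1 to 69.7) and 81.4 CPM (74.4 to 89.0) in adipocyte-like nuclei of the untreated, sham and denervated libraries, at 67.6, 55.3 and 83.3 CPM in mural-like nuclei and at 18.3, 20.1 and 20.9 CPM in EC-like nuclei. The adipocyte-like level exceeded the mural-like level beyond the intervals only in the untreated library. Immune-like nuclei, of which there were only 69, 74 and 257, had 158, 142 and 208 CPM. Per 1000 endothelial-marker UMIs, Notch2 had 314, 150 and 251 UMIs in adipocyte-like and 1.26, 1.58 and 1.67 UMIs in EC-like nuclei. At 300 UMIs, 3.28%, 1.88% and 2.21% of adipocyte-like and 0.528%, 0.535% and 0.573% of EC-like nuclei had a Notch2 UMI, and before thinning 16.7%, 7.75% and 6.96% against 1.10%, 1.12% and 0.764%. At equal depth the gap between the classes was thus narrower, and the order was the same.

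Of the target genes, Hey1 was highest in arterial-like nuclei, Heyl in pericyte-like nuclei and Hes1, except in the denervated library, in smooth muscle-like nuclei. Hey1, a transcriptional repressor linked to arterial identity, had 198 CPM (154 to 250), 166 CPM (112 to 236) and 246 CPM (138 to 406) in arterial-like nuclei of the untreated, sham and denervated libraries. The remaining EC-like nuclei had 28.5, 18.4 and 42.6 CPM. In venous-like nuclei there were no Hey1 UMIs in 166 nuclei of the untreated library, which at 3 counts allows a share of nuclei with a UMI of up to 1.81%, and 17.0 and 19.8 CPM in the other libraries from 2 and 1 UMIs. Adipocyte-like nuclei had 2.93, 1.91 and 3.33 CPM. Thinned to 300 UMIs, 5.99%, 5.36% and 3.09% of arterial-like and 0.0824%, 0.0447% and 0.134% of adipocyte-like nuclei had a Hey1 UMI, and before thinning 12.9%, 7.0% and 9.15% against 0.535%, 0.244% and 0.299%.

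Heyl, the Hey-family gene of mural cells, had 759 CPM (680 to 845), 461 CPM (420 to 505) and 371 CPM (301 to 453) in pericyte-like nuclei and 419, 318 and 204 CPM in smooth muscle-like nuclei of the untreated, sham and denervated libraries. Its order was opposite to that of Notch3, higher in pericyte-like than in smooth muscle-like nuclei, beyond the intervals in the untreated and sham libraries. No Heyl UMI was found in venous-like nuclei of any library, which at 3 counts allows a share of nuclei with a UMI of up to 1.81%, 1.61% and 3.61%. These limits are on detection at this depth and not on expression. Hes1, a target that many cell types express and that other signals also induce, had no such restriction. It was at 180, 140 and 220 CPM in EC-like, 178, 234 and 143 CPM in pericyte-like and 357, 386 and 170 CPM in smooth muscle-like nuclei. The log2 ratio of smooth muscle-like to pericyte-like nuclei was 1.0 (0.26 to 1.69), 0.72 (0.34 to 1.10) and 0.25 (-1.45 to 1.60). Adipocyte-like nuclei had 44.8, 21.8 and 36.1 CPM of Hes1, or 125, 51.6 and 111 UMIs per 1000 endothelial-marker UMIs against 12.5, 11.0 and 17.6 in EC-like nuclei.

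To set these levels against the rest of the genes, a gene was called where the log2 ratio of CPM between classes was at least 1 in size and its interval left out 0, among genes with at least 20 UMIs over both groups. Jag1 and Hey1 were higher in arterial-like than in other EC-like nuclei in all 3 libraries, the latter including venous-like nuclei. The log2 ratio was 1.36 (0.84 to 1.87), 2.42 (1.99 to 2.84) and 2.49 (1.59 to 3.34) for Jag1 and 2.87 (2.39 to 3.36), 3.18 (2.48 to 3.84) and 2.57 (1.60 to 3.48) for Hey1 in the untreated, sham and denervated libraries. Dll4 was called only in the denervated library, at 1.43 (0.82 to 1.99), and had 0.60 (0.33 to 0.86) and 0.69 (0.26 to 1.08) in the untreated and sham libraries. The denervated value came from 31 arterial UMIs, and was 0.47 with nuclei classed by arterial-marker UMIs in place of sub-clusters. With that class Jag1 was called in the sham library only, at 1.16, and had 0.91 and 0.25 in the untreated and denervated libraries, while Hey1 was called in all 3. Counted together, 2 of 10 genes tested were higher in arterial-like nuclei of the untreated library, 2 of 10 of the sham library and 3 of 7 of the denervated library, beside 3.87%, 4.87% and 3.79% of all genes tested. None was lower of the 10 tested in the untreated and the 7 tested in the denervated library, beside 2.66% and 1.49% of all genes. In the sham library Notch3 was lower, at -2.48 (-4.77 to -0.92) from 3 arterial UMIs, beside 1.7% of all genes, and this turned to 0.08 without removal of doublets and to 0.12 with the class from arterial-marker UMIs. Notch1 was higher in arterial-like nuclei by less than a call, at 0.73, 0.61 and 0.64, and Hes1 had -0.36, 0.10 and 0.46, with intervals that held 0 in each library.

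**Figure D2:**
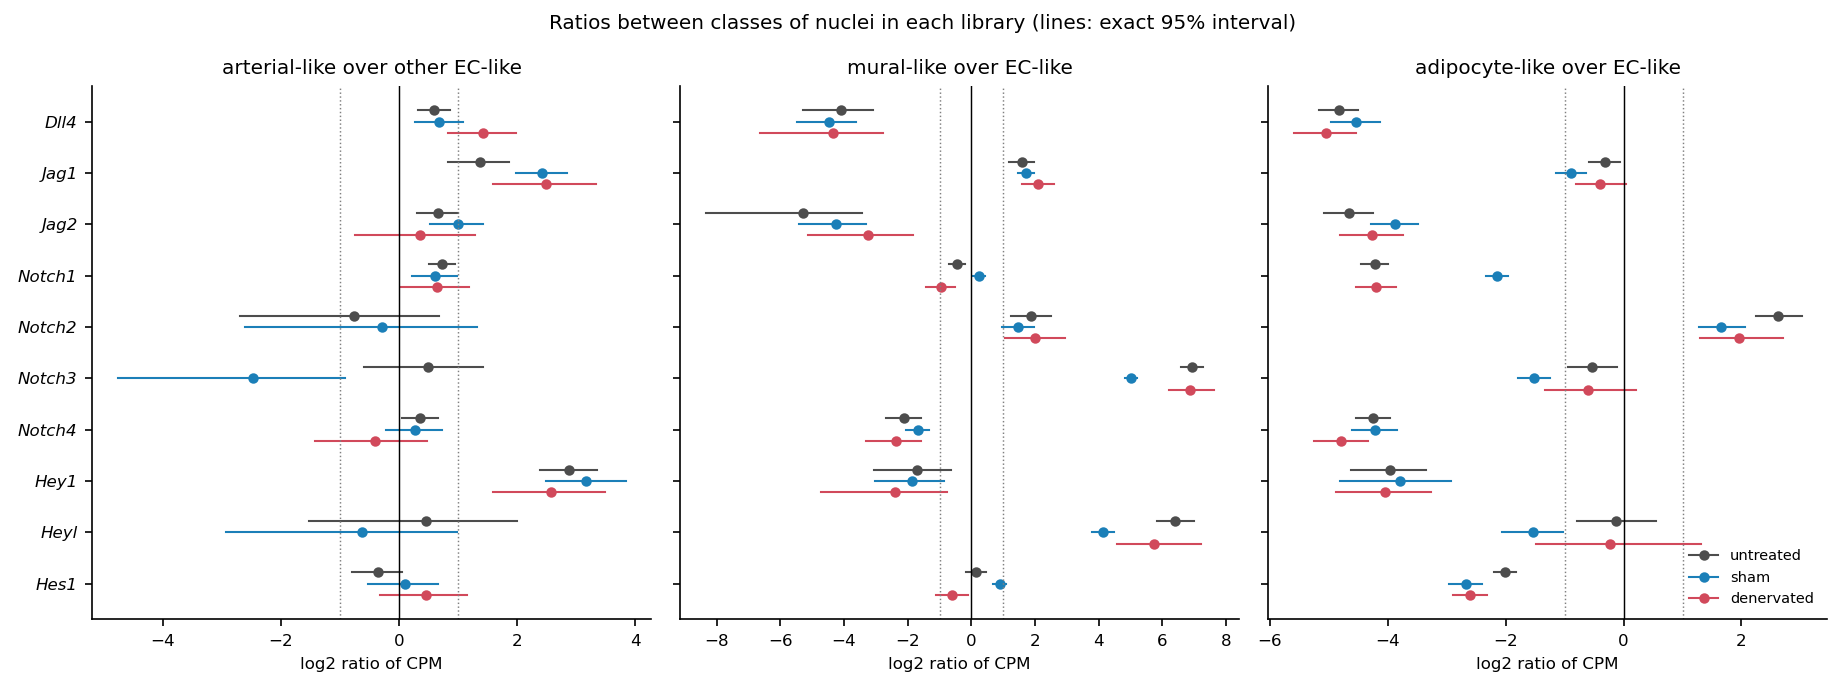
Log2 ratio of CPM (horizontal axes) of each Notch gene between arterial-like and other EC-like nuclei, between mural-like and EC-like nuclei and between adipocyte-like and EC-like nuclei, with exact 95% intervals and 1 point per library; dotted lines mark a ratio of 1 in size, and genes under 20 UMIs are not drawn. Jag1 and Hey1 lie right of the line for arterial-like nuclei in all 3 libraries, and Notch3 and Heyl lie far right for mural-like nuclei, at 6.92 and 6.39 in the untreated library.

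Mural-like and EC-like nuclei held different genes of the pathway, with the same genes on each side in all 3 libraries. Jag1, Notch2, Notch3 and Heyl were higher in mural-like nuclei and Dll4, Jag2, Notch4 and Hey1 were lower, which was 4 of 10 genes each way. Over all genes tested, 16.4%, 17.4% and 14.5% were higher and 12.2%, 12.8% and 15.8% lower in mural-like nuclei of the untreated, sham and denervated libraries. The log2 ratio of Notch3 was 6.92 (6.59 to 7.28), 5.01 (4.84 to 5.19) and 6.86 (6.21 to 7.61), and that of Heyl 6.39, 4.13 and 5.75. In the other direction, Dll4 had -4.09 (-5.30 to -3.10), -4.47 (-5.48 to -3.63) and -4.33 (-6.63 to -2.77). Notch4 had -2.10, -1.68 and -2.38 and Hey1 -1.71, -1.86 and -2.40. Notch1 and Hes1 were on neither side: Notch1 had -0.45, 0.23 and -0.96, and Hes1 0.15, 0.89 and -0.59. The median log2 ratio over all genes tested was 0.10 and 0.16 in the untreated and sham libraries and -0.05 in the denervated library, against which these values can be read.

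Most of the 10 genes were lower in adipocyte-like than in EC-like nuclei. Dll4, Jag2, Notch1, Notch4, Hey1 and Hes1 were lower there in all 3 libraries, and Notch3 and Heyl were also lower in the sham library, which made 6, 8 and 6 of 10 genes. The sham calls of Notch3 and Heyl, at -1.52 and -1.54, were set against EC-like levels that were highest in sham, and with at most 10% mitochondrial UMIs they were -0.66 and -0.64. Notch3 in adipocyte-like nuclei was itself highest in sham, at 30.7 CPM against 16.0 and 13.8 CPM in the untreated and denervated libraries. The background was 18.4%, 19.8% and 17.3% of all genes tested. The log2 ratio of Dll4 was -4.83 (-5.17 to -4.51), -4.53 (-4.96 to -4.13) and -5.05 (-5.60 to -4.55), and that of Hes1 was -2.01, -2.68 and -2.61. Notch2 was the only one of the 10 that was higher, at 2.62 (2.24 to 3.02), 1.65 (1.27 to 2.05) and 1.96 (1.30 to 2.71), beside 26.2%, 24% and 19.3% of all genes. Jag1 was below the size of a call, at -0.32, -0.89 and -0.39. The median over all genes tested was 0.29, 0.11 and 0.19, so that a gene at 0 lay slightly below most genes.

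Within the EC-like nuclei, 8 sub-clusters that were not set aside separated the genes further. These sub-clusters were made from all 3 libraries without the Notch genes, and the values are a description. Hey1 had 193 CPM over all libraries in the arterial sub-cluster, led by Col8a1 and Nebl, and 9.49 to 56.5 CPM in the other 7. Hes1 was highest in a sub-cluster led by the immediate early genes Fos, Junb and Egr1, with 481 CPM (419 to 550) over all libraries and 544, 316 and 505 CPM in the untreated, sham and denervated libraries. The other 7 sub-clusters had 85.1 to 182 CPM of Hes1, so the highest Hes1 and the highest Hey1 fell in different sub-clusters. Notch4 had 329 CPM (259 to 411) over all libraries in a sub-cluster of 280 nuclei led by Apln, Pgf and the proliferation gene Mki67, where Dll4 had 203 CPM and Hey1 38.9 CPM. The Notch4 level there came mainly from the sham library, with 542 CPM (373 to 760) against 242 and 265 CPM in the untreated and denervated libraries. In those libraries other sub-clusters were higher, the arterial one in the untreated library at 308 CPM and the one led by Aqp1 and Timp4 in the denervated library at 314 CPM. Notch3 had 107 CPM over all libraries in a sub-cluster of 3070 nuclei led by Meg3, Kcnq5 and Prkg1, which held 153 CPM (131 to 177) in the sham library and 17.0 and 28.2 CPM in the untreated and denervated libraries. It was the highest sub-cluster in the sham library only, and the arterial one had 31.1 and 32.8 CPM in the other libraries.

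**Figure D3:**
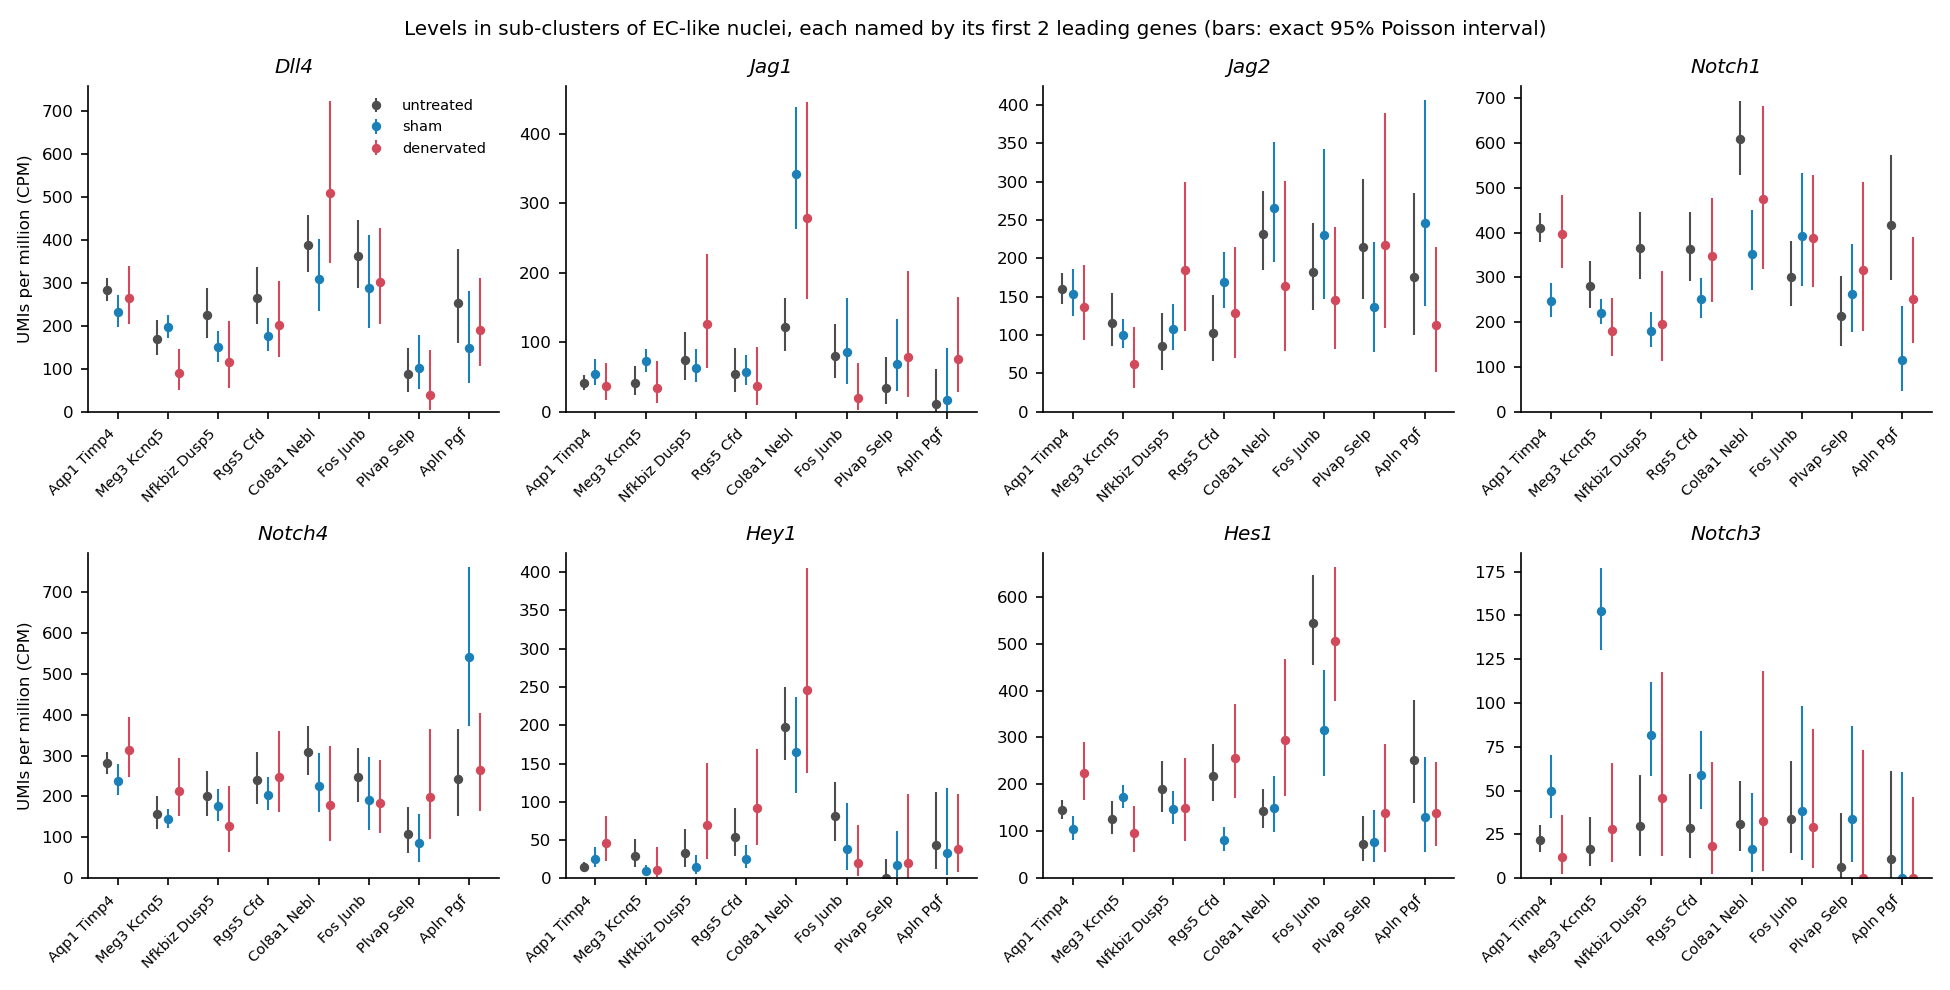
Level in CPM (vertical axes, a scale of its own in each panel) of 8 Notch genes in the 8 EC-like sub-clusters, each named by 2 of its leading genes, with 1 point per library and exact 95% Poisson intervals. Hey1 stands out in the arterial sub-cluster (Col8a1 Nebl) at 198, 166 and 246 CPM and Hes1 in the sub-cluster led by Fos and Junb at 544, 316 and 505 CPM, while Dll4 is lowest in the venous sub-cluster (Plvap Selp) at 87.3, 102 and 39.6 CPM in the untreated, sham and denervated libraries.

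To see how the pathway differed after denervation, EC-like nuclei of the libraries were compared pairwise. No Notch gene of the 10 was called between denervated and untreated EC-like nuclei in either direction, where 5.59% of all genes tested were higher and 1.59% lower in the denervated library. Log2 ratios of the ligands were -0.36 (-0.59 to -0.13) for Dll4, 0.23 (-0.22 to 0.66) for Jag1 and -0.26 (-0.56 to 0.03) for Jag2. Those of the endothelial receptors were -0.31 (-0.50 to -0.12) for Notch1 and -0.08 (-0.30 to 0.14) for Notch4, and those of the targets 0.27 (-0.22 to 0.75) for Hey1 and 0.29 (0.05 to 0.52) for Hes1. For counting error alone, the intervals leave out a 2-fold difference between these libraries for each of these 7 genes. The same held for Notch2, at 0.19 (-0.64 to 0.96), and for Notch3, at -0.15 (-0.96 to 0.59), but not for Heyl, at -0.37 (-1.94 to 0.93). For Notch2 and Notch3 it did not hold after subtraction of ambient RNA, taken as the profile of barcodes under 200 detected genes. Notch2 then had 0.49 (-0.96 to 1.74) from 25 untreated and 7 denervated UMIs. Notch3 went from 76 and 19 to 54 and 0 UMIs, at least 3.58-fold lower in the denervated library with 3 counts taken for 0. There the profile held Notch3 at 117 CPM, above its level in EC-like nuclei, so at a scale of 48.6% it had to leave 0. This value of Notch3 thus decides nothing about a change. In arterial-like nuclei alone, which were 142 in the denervated library, Jag1 had 1.20 (0.29 to 2.04) and Hes1 1.03 (0.17 to 1.83) from 17 and 18 denervated UMIs. Thinned to 300 UMIs, 6.19% and 7.22% of these nuclei had a UMI, against 2.88% and 5.10% in the untreated library, with overlapping intervals for both genes. Before thinning the shares were 10.6% and 9.15%, against 6.43% and 9.13%. Jag1 and Hes1 were 2 of 7 genes tested, beside 3.76% of all genes higher, and none was lower, beside 1.52%. Between sham and untreated arterial-like nuclei Jag1 had 1.49 (0.91 to 2.09) and Hes1 0.05 (-0.68 to 0.75), so Jag1 was not higher in the denervated library alone. It was the 1 gene of 7 called there, beside 4.89% of all genes higher and 4.66% lower.

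More Notch genes were called in the comparisons that hold the sham library. Notch3 and Heyl were higher in sham than in untreated EC-like nuclei, at 1.92 (1.55 to 2.31) and 1.55 (0.91 to 2.23), and none of the 10 was lower, beside 5.42% of all genes higher and 3.15% lower. Notch3 and Heyl were lower in denervated than in sham EC-like nuclei, at -2.08 (-2.83 to -1.41) and -1.92 (-3.41 to -0.74), beside 5.82% of all genes, and Hey1 was higher, at 1.05 (0.52 to 1.57), beside 9.26%. These comparisons share the sham library. Its EC-like nuclei had 12.7% mitochondrial UMIs, against 9.47% and 5.53% in the untreated and denervated libraries. The ambient share was estimated at 72.4%, against 33.0% and 48.6%, from adipocyte-marker levels over those in barcodes under 200 detected genes. These barcodes also held endothelial genes, so the estimate can exceed the true share in each library. Dll4 was there at 98.7, 75.4 and 154 CPM in the untreated, sham and denervated libraries, lowest in sham. EC-like nuclei held 4639, 4321 and 1544 adipocyte-marker UMIs of 3.28e+06, 3.24e+06 and 908918 UMIs in the untreated, sham and denervated libraries. The part of mitochondrial and ambient RNA in the calls was not tested beyond the alternatives given here. Notch3 in EC-like nuclei was at 23.2, 88.1 and 20.9 CPM and Heyl at 8.55, 25.04 and 6.6 CPM in the untreated, sham and denervated libraries. The pericyte marker list in the same nuclei was at 250, 354 and 400 CPM, with 10, 10 and 7 of its 10 markers at 3 UMIs or more, so that Notch3 per 1000 pericyte-marker UMIs was 92.8, 249 and 52.2 in EC-like and 243, 222 and 346 in mural-like nuclei. In the sham library the intervals of these ratios, 221 to 280 and 214 to 229, overlapped between both classes. Those of Heyl did not, at 70.7 (56.2 to 87.9) in EC-like and 34.1 (31.3 to 37.1) in mural-like nuclei of the sham library. Rgs5 was the largest part of the pericyte list in EC-like nuclei. Outside the arterial-like class it was at 206, 188 and 333 CPM in the untreated, sham and denervated libraries. There Pdgfrb was at 6.50, 26.2 and 10.6 CPM and Abcc9 at 18.5, 50.8 and 24.8 CPM. Each marker of the list but Rgs5 and Higd1b was highest in the sham library there, which the sum of the list does not show. Without the 2 sub-clusters led by Meg3 and by Rgs5, which carry pericyte genes, the sham ratio to the untreated library was 1.13 for Notch3 and 0.84 for Heyl, and without removal of doublets it was 1.04 and 0.77. Without removal of doublets none of the 10 genes was called between denervated and sham EC-like nuclei, where Notch3 had -0.72, Heyl -0.32 and Hey1 0.98. The part of pericyte RNA in the EC-like values was not tested beyond these alternatives. Hey1 moved from 1.05 to 0.65 without these sub-clusters and to 0.56 with at most 10% mitochondrial UMIs.

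**Figure D4:**
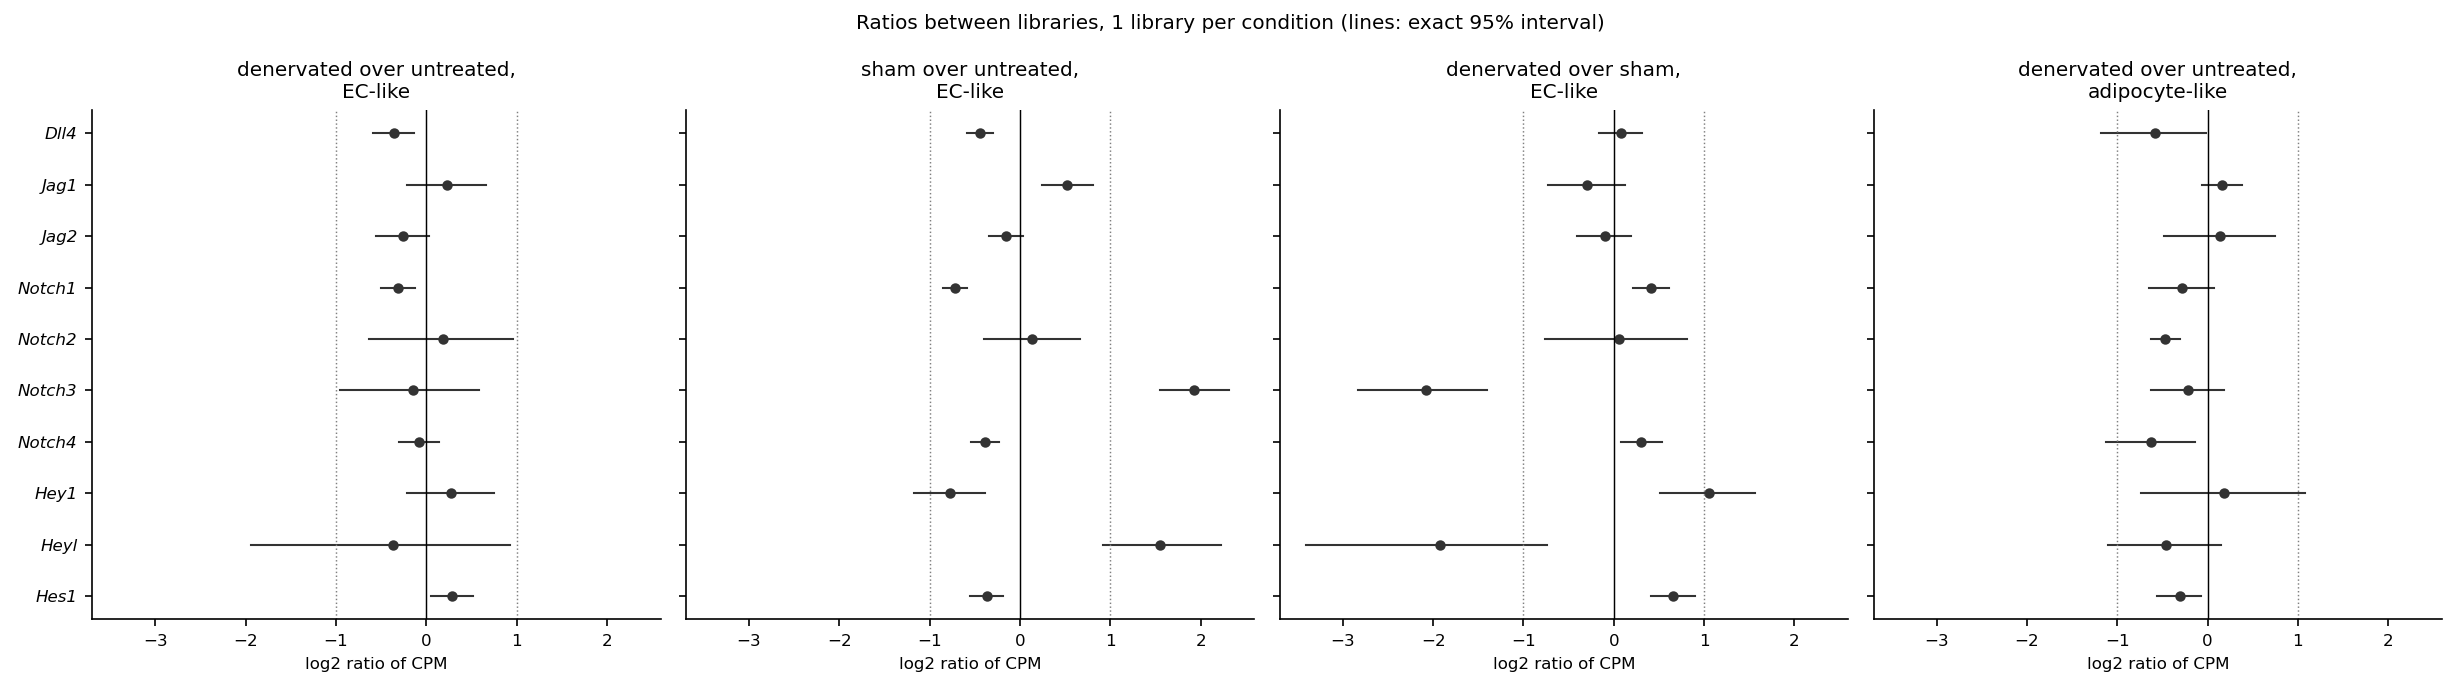
Log2 ratio of CPM (horizontal axes) of each Notch gene between libraries, for EC-like nuclei (denervated over untreated, sham over untreated, denervated over sham) and for adipocyte-like nuclei (denervated over untreated), with exact 95% intervals for counting error; dotted lines mark a ratio of 1 in size. No gene passes the lines between denervated and untreated nuclei, and Notch3 and Heyl lie at 1.92 and 1.55 between sham and untreated EC-like nuclei.

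In adipocyte-like nuclei none of the 10 genes was called between the denervated and untreated libraries, where 8.98% of all genes tested were higher and 1.81% lower in the denervated library. Notch2 had -0.47 (-0.63 to -0.31), Jag1 0.16 (-0.06 to 0.38), Notch4 -0.62 (-1.13 to -0.14) and Hes1 -0.31 (-0.56 to -0.07). For counting error alone, the interval of Notch2 thus leaves out both no difference and a 2-fold difference between these libraries. Notch2 was at 112, 63.2 and 81.4 CPM in adipocyte-like nuclei of the untreated, sham and denervated libraries, lowest in sham, with a log2 ratio of sham to untreated of -0.83 (-1.003 to -0.66). Between sham and untreated adipocyte-like nuclei Notch1 was called as higher, at 1.35 (1.09 to 1.62), and Hes1 as lower, at -1.04 (-1.33 to -0.75), beside 8.96% of all genes higher and 8.18% lower. Between denervated and sham Notch1 was lower, at -1.64 (-1.97 to -1.31), as was Notch3, at -1.15 (-1.54 to -0.77), beside 8.29% of all genes, and none was higher, beside 14.4%. In mural-like nuclei Heyl was at 716, 437 and 354 CPM in the 3 libraries in that order, with a log2 ratio of denervated to untreated of -1.02 (-1.35 to -0.69), while Notch3 had -0.21 (-0.34 to -0.08), Notch1 -0.81 (-1.32 to -0.33) and Jag1 0.75 (0.29 to 1.21). Heyl was also lower in the sham than in the untreated library, at -0.71 (-0.91 to -0.51), and denervated against sham it was -0.30 (-0.62 to 0.00). Of the 7 Notch genes tested in mural-like nuclei, Heyl alone was called between the denervated and untreated libraries, beside 3.66% of all genes higher and 4.66% lower. None of the 7 was called between sham and untreated, beside 4.23% and 2.72%. Per 1000 pericyte-marker UMIs, Heyl in mural-like nuclei was at 61.6 (55.4 to 68.3), 34.1 (31.3 to 37.1) and 50.2 (40.9 to 61.0), so that on this scale the intervals of the untreated and denervated libraries overlapped. On the same scale Notch3 turned from lower to higher in the denervated library, at 346 (321 to 372) against 243 (230 to 256) in the untreated library, and Jag1 was at 39.4 (31.2 to 49.0) against 14.2 (11.3 to 17.6). Notch1 was at 23.1 (17.0 to 30.8) against 24.6 (20.8 to 29.0), with intervals that overlapped. The pericyte marker list in pericyte-like nuclei was at 12171, 14199 and 7236 CPM, lowest in the denervated library, where the median depth of these nuclei was also lowest. Its markers did not move alike. Rgs5, its largest part, was at 5801, 6545 and 2485 CPM, whereas Pdgfrb was at 1051, 1149 and 1187 CPM and Cspg4 at 493, 378 and 472 CPM. Each of the other markers was lower in the denervated than in the untreated library. The values per 1000 pericyte-marker UMIs thus depend largely on Rgs5.

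The wider pathway was read from a list of 47 genes chosen by role, of which 46 were in a table. Between mural-like and EC-like nuclei of the untreated library, 8 of 38 genes tested were higher and 6 lower in mural-like nuclei, against 16.4% and 12.2% of all genes, and the median log2 ratio of the list was -0.03. The transcriptional coactivator Maml3 had 1326, 1104 and 1388 CPM in mural-like and 106, 91.8 and 112 CPM in EC-like nuclei of the untreated, sham and denervated libraries and log2 ratios of 3.64, 3.59 and 3.63. The Deltex gene Dtx3, which encodes a ubiquitin ligase, had log2 ratios of 4.50, 3.65 and 4.41, and Dtx4 of 5.33, 4.14 and 6.18. Numbl, a relative of the Notch inhibitor Numb, had 2.33, 1.74 and 1.88. The coactivator gene Kat2b had -1.08, -0.96 and -0.92, and was thus called in the untreated library only. Dlk1, a non-canonical ligand, was at 169, 170 and 62.5 CPM in mural-like and 2.14, 4.02 and 2.20 CPM in EC-like nuclei. Among the genes that put sugars on the receptor, the Fringe genes Lfng and Mfng were lower in mural-like nuclei in all 3 libraries, with Lfng at -1.16, -2.28 and -1.13, while Pofut1, which adds the fucose that Fringe enzymes extend, was higher at 1.11, 1.12 and 1.03. Rfng, the third Fringe gene, had 1.10, 1.18 and 0.13, and Adam17, a metalloprotease that cuts Notch receptors, -1.19, -0.28 and -0.95. Dll1, a further Delta ligand, was at 32.4, 35.9 and 29.7 CPM in EC-like nuclei and had 0, 3 and 0 UMIs in mural-like nuclei. Nrarp, a feedback inhibitor that Notch induces, was at 31.8, 58.5 and 62.5 CPM in mural-like and 103, 64.9 and 150 CPM in EC-like nuclei, with log2 ratios of -1.70 (-2.52 to -0.98), -0.15 (-0.56 to 0.24) and -1.26 (-2.06 to -0.55).

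Between arterial-like and other EC-like nuclei of the untreated library, 1 of 35 listed genes tested was higher, Mib2, and 1 was lower, Neurl1b, beside 3.87% and 2.66% of all genes, both genes for ubiquitin ligases that act on ligands. Neurl1b had log2 ratios of -1.78 (-2.80 to -0.92), -1.98 (-3.61 to -0.74) and -2.16 (-7.48 to 0.37) in the untreated, sham and denervated libraries, and Mib2 was at 1.02, -0.41 and -0.53. Mib2 was thus called in the untreated library only. In the sham library 0 of 36 were higher and 3 lower, Maml3, Neurl1b and Dtx3, beside 4.87% and 1.7% of all genes. In the denervated library 0 of 30 were called in either direction, beside 3.79% and 1.49%. Between adipocyte-like and EC-like nuclei, 6, 7 and 4 of 38, 40 and 37 genes were higher in adipocyte-like nuclei of the untreated, sham and denervated libraries and 9, 10 and 11 were lower. Over all genes 26.2%, 24% and 19.3% were higher and 18.4%, 19.8% and 17.3% lower. Dll1, Maml3, Mfng, Dtx3 and Nrarp were among the lower ones in each library. Between denervated and untreated EC-like nuclei none of 36 genes of the list was called, beside 5.59% of all genes higher and 1.59% lower. None of 37 was called in adipocyte-like nuclei, beside 8.98% and 1.81%.

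The genes with the most similar levels were found by Pearson's r of log2 of CPM plus 10 over 26 classes in libraries, among 10584 genes. These points share libraries and nuclei of related classes, so r is given as a description. The 3 closest genes are given for each. For Dll4 they were Btnl9, Car7 and Rtp3, at 0.96, 0.93 and 0.91. Btnl9 is on a list of capillary markers that was not used for naming. For Jag1 they were Col8a1, Tmem178 and Aig1, at 0.83, 0.80 and 0.79, and for Jag2 Tnfsf10, Casz1 and Mmrn2, at 0.96, 0.96 and 0.95. Notch1 was closest to Pcdh1, Tspan2 and Apbb2, at 0.91, 0.88 and 0.86, and Notch2 to Rnf150, Itsn1 and Dnmt3a, at 0.90, 0.81 and 0.81. Notch3 was closest to Arhgef17, Aspn and Tbx2, at 0.98, 0.96 and 0.94, and Notch4 to Zfp979, Arhgef15 and Efna1, at 0.90, 0.90 and 0.89. Of all 10 genes, including those given below, Jag1 had the lowest r with its closest gene. Hey1 was closest to Sema7a, Lrrc3b and Stmn2, at 0.85, 0.83 and 0.81, where Stmn2 is on the arterial list. Heyl was closest to Gucy1a1, Lin7a and Cox4i2, at 0.94, 0.94 and 0.94, where Gucy1a1 is on the pericyte list, and Hes1 to Nckap1, Sparcl1 and Apbb2, at 0.84, 0.84 and 0.83. Among the 10 genes themselves, r was 0.87 for Heyl and Notch3, 0.82 for Notch4 and Jag2, 0.81 for Jag2 and Dll4 and -0.71 for Notch2 and Dll4.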

How the data were processed

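Single nuclei were run on the BD Rhapsody system. The authors deposited whole-number counts of UMIs for each gene in each nucleus, without normalization. Per the file headers of the untreated and denervated tables, these counts were made on GRCm38 with a GENCODE vM19 annotation. The sham table has no header, and the labels list GRCh38. The submitters' processing notes name Seurat 4.0.6. The study's DIEM, decontX and removal of immune clusters were not applied here, so ambient RNA remains.

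The tables hold 13707, 15368 and 15822 barcodes and 14971579, 14725864 and 9420030 UMIs. The filters were 200 detected genes and a maximum of 50% mitochondrial UMIs. Nuclei with 3 or more UMIs from each of a pair of exclusive marker lists, the lesser sum being 25% or more of the greater, were removed as doublets (1354, 2217 and 889). Each library was clustered without the Notch and pathway genes (2000 variable genes, 30 principal components, Louvain at resolution 0.5), and EC-like and mural-like nuclei were then sub-clustered over all libraries. How marker lists became names was decided with the clusters in view, and differences from the study may reflect these rebuilt names. The genes and lists were chosen with earlier results of these data known. Pathway genes are named where they were called in the untreated library, with at least 50 CPM in a class of at least 50 nuclei, between arterial-like and other EC-like or between mural-like and EC-like nuclei. A gene that met this rule is not reported here.

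UMIs were summed per class. CPM had exact Poisson intervals, ratios exact conditional binomial intervals and shares Clopper-Pearson intervals, all at 95%. A class without UMIs was set to 3 counts as a bound. Mitochondrial genes were not among the genes tested. The steps were tested on simulated data. Alternatives changed 1 choice at a time, some chosen after seeing the data. The tools were Python 3.11.15, scipy 1.17.1, numpy 2.4.6, python-igraph 0.11.9, scikit-learn 1.9.0, pandas 2.3.3 and matplotlib 3.10.9.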

Additional observations from a re-analysis of the deposited data

Results flagged for a closer look

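Some genes had ratios of opposite sign in different classes or libraries, each with an interval that left out 0. None of these differences between groups was tested, since each condition had 1 library. Notch1 had a log2 ratio of sham to untreated of -0.72 in EC-like nuclei and 1.35 in adipocyte-like nuclei, and of denervated to sham of 0.41 in EC-like nuclei and -1.64 in adipocyte-like nuclei. Between mural-like and EC-like nuclei, Notch1 had -0.45 in the untreated library, 0.23 in the sham library and -0.96 in the denervated library. Hes1 had a ratio of denervated to untreated of 0.29 in EC-like and -0.31 in adipocyte-like nuclei. Between mural-like and EC-like nuclei, Hes1 had 0.89 in the sham library and -0.59 in the denervated library.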

How the results depend on the processing

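Of 146 alternative counts for 13 comparisons, 129 stayed within 1.5 times the reported count. On the mean log2 of counts per 10000 plus 1, where genes found in few nuclei have small differences by construction, 0 genes were called as higher in arterial-like nuclei of any library, 2 (Notch3 and Heyl), 1 and 1 (Notch3) as higher in mural-like nuclei of the untreated, sham and denervated libraries, 0 as lower in adipocyte-like nuclei of any library, and 0 between sham and untreated or denervated and sham EC-like nuclei. With the arterial class taken from marker UMIs, 1 gene (Hey1) was higher in the denervated library. Between denervated and untreated EC-like nuclei 1 gene (Notch3) was called after subtraction of ambient RNA, scaled to 33.0%, 72.4% and 48.6% of EC-like UMIs of the untreated, sham and denervated libraries. The ambient profile was that of barcodes under 200 detected genes, where Notch3 was at 117 CPM in the denervated library, so its denervated count had to become 0. Between sham and untreated EC-like nuclei 1 gene (Notch3) remained with at most 10% mitochondrial UMIs, without removal of doublets, and without the sub-clusters led by pericyte genes. Between denervated and sham EC-like nuclei 0 were called without removal of doublets. Where no construction is named above, the cause was not tested. Of 668 alternative ratios of called genes, 579 kept the call, whatever the size of the shift, and 87 lost it (56 on the mean log2 scale). The sign reversed in 2, both of Notch3 in arterial-like nuclei of the sham library (0.076 without removal of doublets, 0.12 with the arterial class from marker UMIs).

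Shares in the untreated library rose with depth. At 500 UMIs and without thinning they were 15.6% and 19.9% for Dll4, 10.6% and 14.5% for Jag2, 23.5% and 30.3% for Notch1, 14.8% and 19.7% for Notch4 and 10.6% and 12.9% for Hey1 in arterial-like nuclei, 7.14% and 11.2% for Jag1 and 29.0% and 37.4% for Heyl in pericyte-like nuclei, 81.4% and 83.1% for Notch3 in smooth muscle-like nuclei and 5.53% and 16.7% for Notch2 in adipocyte-like nuclei. Hes1 in smooth muscle-like nuclei was at 15.3% and 21.1%. A minimum of 500 genes left 5 arterial-like nuclei in the denervated library, and sub-clusters made in each library on its own gave no arterial-like class there, so these gave no value. No paired analysis was possible because there was 1 library per condition. In the denervated library 33.3% of EC-like nuclei were under 300 UMIs and dropped out of the thinned shares.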

Other observations

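Barcodes under 200 detected genes, which were left out of all comparisons, also held Notch UMIs. Dll4 was at 154 CPM (129 to 182) in 5358 such barcodes of the denervated library at 75.4 CPM (50.9 to 108) in 988 of the sham library and at 98.7 CPM (73.0 to 130) in 1871 of the untreated library. Hes1 was at 211, 55.3 and 165 CPM in these libraries, lowest in sham. These barcodes were not assigned to a class.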
